A study of Homo sapiens with 6 samples.

Results

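The BCL2 family decides, at the mitochondrial outer membrane, whether a cell survives or dies by apoptosis. Expression of 10 of its genes was followed here in KMS27, an established line of malignant plasma cells (multiple myeloma), with and without overexpression of TAZ. The members were BCL2, BCL2L1, MCL1, BCL2A1, BAX, BAK1, BCL2L11, BBC3, PMAIP1 and BID. They were taken by gene symbol from the authors' transcript table, and the values of all transcripts with 1 gene identifier were summed, which gave 10 genes and 72 transcripts of 63677 genes and 215170 transcripts in all. TAZ is the product of WWTR1 and a coactivator of transcription under control of the Hippo pathway, and HA is a short peptide tag. The study sequenced total RNA of 6 libraries, 3 of KMS27 cells labelled wild type and 3 of KMS27 cells that overexpress HA-tagged TAZ (HA-TAZ). The treatment label is the stated difference between the groups, although HA also stands in the titles of the wild type libraries. The promoter and vector of HA-TAZ, and whether a clone or a pool of cells was used, are not given in the sources used here.

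The columns of 3 libraries carry TAZ and a number and are called HA-TAZ 1, 2 and 3. The other 3 columns carry the name scr, which is in no label. By elimination these were taken as wild type, and they are called control a, b and c. Libraries were made in triplicate per the labels' protocols, and nothing says that they came from separate cultures. The p-values therefore measure the spread between these libraries, which may be technical. In bulk RNA, fewer cells of a type and less RNA per cell cannot be told apart.

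The family has 3 kinds of members. Prosurvival members (BCL2, BCL2L1, MCL1 and BCL2A1), also called guardians, hold the others in check by binding them. BH3-only members (BCL2L11 or BIM, BBC3 or PUMA, PMAIP1 or NOXA, and BID) carry a short helix, the BH3 domain, that fits into the groove of the guardians, and some also activate the effectors directly. The effectors BAX and BAK1 assemble into pores in the outer membrane and release cytochrome c, which starts the caspase cascade. Plasma cells and many myelomas depend on MCL1, and PMAIP1 is known for binding MCL1 and for promoting its degradation.

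The coding sequence of the BH3 core is shown for each member in which it was found, since this helix is the means by which the members bind one another. It was searched in the reading frame of GENCODE release 29 transcripts as a leucine codon, 3 codons of any kind, a glycine or alanine codon and an aspartate codon. It occurred once in each of 9 members and was not found in BCL2A1. Capitals mark these 6 codons, and 12 bases of coding sequence stand on each side. The transcript version in the authors' table was the same as in GENCODE release 29 for 5 of these 9 transcripts and another for 4, which were matched by stable identifier.
BCL2 (guardian): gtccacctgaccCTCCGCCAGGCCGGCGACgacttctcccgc
BCL2L1 (guardian): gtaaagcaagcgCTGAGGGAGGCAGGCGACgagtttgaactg
MCL1 (guardian): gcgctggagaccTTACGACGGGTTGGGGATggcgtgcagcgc
BAX (effector): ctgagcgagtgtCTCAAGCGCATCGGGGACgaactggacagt
BAK1 (effector): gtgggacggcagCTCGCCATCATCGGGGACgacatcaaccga
BCL2L11 (BH3-only): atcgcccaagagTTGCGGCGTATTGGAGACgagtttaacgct
BBC3 (BH3-only): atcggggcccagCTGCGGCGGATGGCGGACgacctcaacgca
PMAIP1 (BH3-only): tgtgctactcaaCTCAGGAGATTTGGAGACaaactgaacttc
BID (BH3-only): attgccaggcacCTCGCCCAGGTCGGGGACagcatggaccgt
The glycine or alanine codon is a glycine codon in every member shown but BBC3, which has an alanine codon (gcg).

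WWTR1 was at 293, 306 and 293 TPM in HA-TAZ 1, 2 and 3 and at 2.69, 2.22 and 1.69 TPM in control a, b and c, so each library matched its group. TPM (transcripts per 1000000) is a level per transcript length and relative to all RNA of the same library. The 9 plasma cell markers searched were all at 1 TPM or more, and their summed level ran from 2785 to 3217 TPM in HA-TAZ and from 4270 to 4825 TPM in the controls. Of 14 markers of T, myeloid, mature B, erythroid and stromal cells, 2 (COL1A1 and CSF1R) reached a mean of 1 TPM, and the summed level was 4.87 to 5.22 TPM in HA-TAZ and 4.18 to 6.07 TPM in the controls. JCHAIN, at 2517, 2618 and 2234 TPM in HA-TAZ and 4082, 3675 and 3617 TPM in the controls, made up most of the plasma cell marker sum, and the other 8 markers summed to 550.2 to 599 TPM and 653 to 743 TPM. With rescaling and the limma test described next, the 9 markers had a median log2 fold change of -0.05, with SLAMF7 called higher (0.95, adjusted p = 0.0128) and CD38 lower (-0.61, adjusted p = 0.0226). The part of these marker values in the member results was not tested. Because TPM is a share of a library, all values were also rescaled by a median-of-ratios factor over 21512 genes, and limma was run on log2(rescaled TPM + 1) for the 22651 genes with a mean of at least 1 TPM. A gene was called at a Benjamini-Hochberg adjusted p under 0.05 over all these genes. Rescaling moved the median log2 fold change of all genes from -0.27 with TPM as deposited to -0.03, and the share of called genes that were higher from 7.84% of 3329 to 64.0% of 1652. It was 51.9% of 2746 with protein-coding genes only and factors computed over them. The factors by which TPM was divided were 0.866 to 0.967 in HA-TAZ and 1.06 to 1.21 in the controls. Both scales are therefore given for the members. Fold changes are on the log2(value + 1) scale, which understates changes of low genes.

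Of the 10 members, 9 passed the filter on level, limma called 5 higher in HA-TAZ and 0 lower, and at an unadjusted p under 0.05 there were 8 higher and 0 lower, against 16.6% and 14.1% of all genes. The called genes were MCL1 and BCL2 among the guardians, PMAIP1 and BCL2L11 among the BH3-only members, and BAX among the effectors. Of all genes tested, 4.67% were called higher and 2.63% lower, and of the 11666 protein-coding genes tested 7.5% were called higher. With TPM as deposited 2 of the 9, MCL1 and PMAIP1, were called higher, against 1.15% of all genes. With protein-coding genes only and factors computed over them, 7 were called higher, BAK1 and BID in addition, against 12.2% of the genes in that fit. The median log2 fold change of the 9 members was 0.39 with rescaling and 0.12 with TPM as deposited. Relative to the median of all genes these were 0.41 and 0.40. The protein-coding genes tested had higher medians than all genes, 0.06 with rescaling and -0.20 with TPM as deposited. Relative to them the members were therefore less far above. The count fell with any 1 library left out. Members called were 1 without HA-TAZ 1, 0 without HA-TAZ 2 and 2 without HA-TAZ 3. They were 2 without control a, 1 without control b and 4 without control c. The count over all genes, 1652 with all libraries, fell as well. It was 118, 137 and 211 without HA-TAZ 1, 2 and 3, and 407, 166 and 470 without control a, b and c. All 9 tested members kept a positive log2 fold change in each of these fits. Rescaled levels of 8 of the 9 tested members were higher in every HA-TAZ library than in every control, as were those of 20.2% of all genes. This held for 4 of the 9 with TPM as deposited, against 4.41% of all genes.

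**Figure D1:**
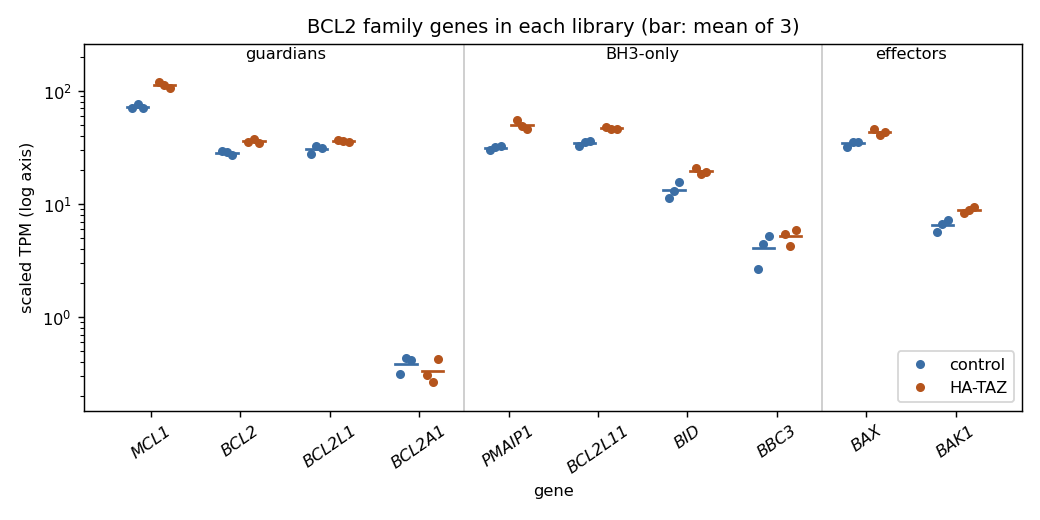
Rescaled TPM of the 10 members on a log axis, by role, with the 3 HA-TAZ and 3 control libraries as points and the group mean as a bar. MCL1 sat highest, with means of 113 in HA-TAZ and 72.3 in the controls, and the points of the groups overlap for BCL2A1 and BBC3.

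MCL1 (ENSG00000143384), the guardian on which many myelomas depend, was the most abundant member and rose in HA-TAZ. Its level was 104, 108 and 94.4 TPM in HA-TAZ 1, 2 and 3 and 84.8, 82.8 and 74.8 TPM in control a, b and c. Every HA-TAZ library was above every control. Rescaled, the mean was 113 ± 6.88 in HA-TAZ and 72.3 ± 3.19 in the controls (SD, n = 3 each), a ratio of 1.56. In limma this was a log2 fold change of 0.63 (SE 0.06, adjusted p = 0.0106). With TPM as deposited the log2 fold change was 0.33 (adjusted p = 0.0452). Of the 6 fits without 1 library, the call was lost in that without HA-TAZ 2 (adjusted p = 0.0554). An exon of MCL1 overlaps ADAMTSL4-AS1, which had a mean of 1.42 TPM.

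BCL2 (ENSG00000171791), the founding guardian and the target of venetoclax, was called higher on the rescaled values and not on TPM as deposited. Its level was 30.8, 36.6 and 31.0 TPM in HA-TAZ and 35.6, 31.3 and 28.6 TPM in the controls, so the deposited values of the groups overlapped. Rescaled means were 36.1 ± 1.59 and 28.4 ± 1.24 (SD, n = 3 each), which did not overlap. The limma log2 fold change was 0.33 (SE 0.06, adjusted p = 0.0339) with rescaling and 0.04 (adjusted p = 0.779) without. Leaving out any 1 of the 6 libraries took the call away, with limma adjusted p from 0.0647 to 0.117. The log2 fold change on the rescaled values ran from 0.30 to 0.36 in these fits.

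BCL2L1 (ENSG00000171552), which encodes BCL-XL, did not pass the test. Its level was 32.2, 34.6 and 31.7 TPM in HA-TAZ and 33.7, 35.6 and 33.1 TPM in the controls, with overlapping groups. The limma log2 fold change was 0.24 (95% interval 0.07 to 0.40, adjusted p = 0.0823) with rescaling and -0.05 (adjusted p = 0.535) with TPM as deposited, so its sign depended on the scaling. Relative to the median of all genes the values were 0.26 and 0.22. BCL2A1 (ENSG00000140379), a guardian known as a target of NF-kB, was the lowest member. Its level was 0.267, 0.258 and 0.380 TPM in HA-TAZ and 0.381, 0.475 and 0.440 TPM in the controls, below the filter, so limma did not test it. The deposited values were lower in every HA-TAZ library, by a small margin between HA-TAZ 3 and control a, and the rescaled values overlapped (exact two-sided permutation p = 0.4). With TPM as deposited the median log2 fold change of all genes was itself -0.27. The share of all genes that were lower without overlap was not computed. The authors' deposited table gives 9.35 estimated counts for its transcript BCL2A1-201 in a typical library and no statistics for BCL2A1-202, so a difference at this level was not detectable with any precision.

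Within the guardians, MCL1 took a larger part in HA-TAZ, a share that does not depend on the scaling between libraries. Its part of the summed guardian TPM was 62.1, 60.3 and 59.9% in HA-TAZ and 54.9, 55.1 and 54.7% in the controls, without overlap. The part of BCL2 was 18.4, 20.4 and 19.7% in HA-TAZ and 23.0, 20.9 and 20.9% in the controls, and the part of BCL2L1 was 19.3, 19.2 and 20.1% against 21.8, 23.7 and 24.2%. Both parts were lower in every HA-TAZ library. The parts add up to a fixed whole, so a larger part of MCL1 leaves a smaller part for the others together. A smaller part does not mean that the level of BCL2 or BCL2L1 fell. The ratio of MCL1 to BCL2 was 3.13 ± 0.217 in HA-TAZ and 2.55 ± 0.144 in the controls, and that of MCL1 to BCL2L1 was 3.11 ± 0.124 and 2.37 ± 0.130 (SD, n = 3 each). These ratios were chosen after the values had been seen and are given without a test.

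**Figure D2:**
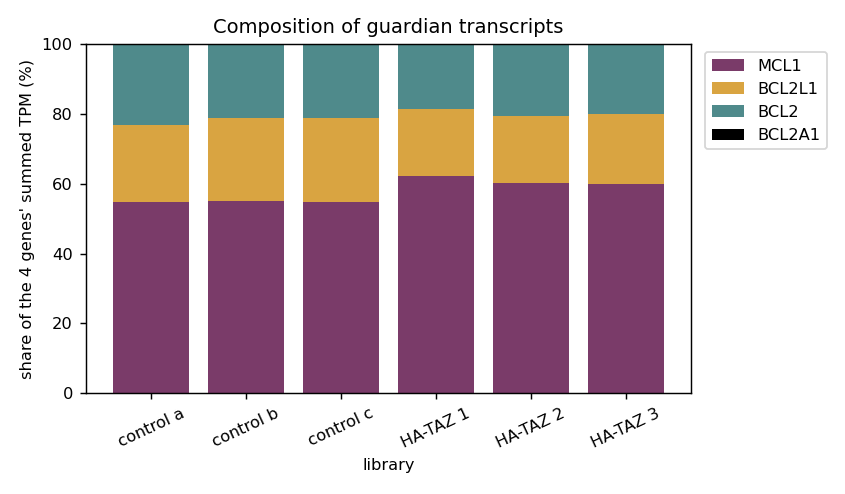
Share of summed guardian TPM held by MCL1, BCL2, BCL2L1 and BCL2A1 in each library, in percent. The MCL1 share was 59.9 to 62.1% in HA-TAZ and 54.7 to 55.1% in the controls, and BCL2A1 is too low to be visible.

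PMAIP1 (NOXA, ENSG00000141682), the BH3-only partner of MCL1, rose by about as much as MCL1. Its level was 47.7, 47.6 and 40.7 TPM in HA-TAZ and 36.4, 34.5 and 34.8 TPM in the controls, without overlap. Rescaled means were 50.03 ± 4.72 and 31.6 ± 1.44 (SD, n = 3 each), a ratio of 1.59. The limma log2 fold change was 0.65 (SE 0.08, adjusted p = 0.0167), and 0.35 (adjusted p = 0.0426) with TPM as deposited. The call was lost without HA-TAZ 1 (adjusted p = 0.0575), HA-TAZ 2 (0.0702), control a (0.0521) or control b (0.0662). The ratio of PMAIP1 to MCL1 was 0.444 ± 0.015 in HA-TAZ and 0.437 ± 0.025 in the controls (SD, n = 3 each), and the groups overlapped.

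BCL2L11 (BIM, ENSG00000153094), which binds all guardians and can activate BAX and BAK1, was called higher on the rescaled values. Its level was 41.4, 44.5 and 41.2 TPM in HA-TAZ and 39.1, 38.3 and 38.6 TPM in the controls, without overlap. Rescaled means were 46.7 ± 0.950 and 34.6 ± 2.11 (SD, n = 3 each), with a limma log2 fold change of 0.42 (SE 0.06, adjusted p = 0.0218). With TPM as deposited the log2 fold change was 0.13 (adjusted p = 0.148), which did not pass. The call was also lost without HA-TAZ 1 (adjusted p = 0.0910), HA-TAZ 2 (0.0790), HA-TAZ 3 (0.0704) or control b (0.0728). Exons of BCL2L11 overlap those of MIR4435-2HG on the opposite strand, which had a mean of 10.2 TPM. A use of strand in the quantification is not given in the sources used here, so reads of the overlap may be shared. Relative to MCL1, BCL2L11 was lower in every HA-TAZ library, with a ratio of 0.415 ± 0.019 against 0.479 ± 0.031. Relative to BCL2L11, PMAIP1 was higher in every HA-TAZ library, with a ratio of 1.07 ± 0.082 against 0.912 ± 0.016 (SD, n = 3 each). Like those within the guardians, these ratios were chosen after the values had been seen and are given without a test. How often other pairs of genes separate in this way was not computed.

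BID (ENSG00000015475), which links death receptors to mitochondria after cleavage by caspase-8, lay just outside the threshold. Its level was 17.9, 17.9 and 17.2 TPM in HA-TAZ and 13.8, 14.1 and 16.5 TPM in the controls, without overlap, and control c was nearest to the HA-TAZ libraries. Rescaled means were 19.5 ± 1.08 and 13.3 ± 2.09 (SD, n = 3 each). The limma log2 fold change was 0.53 (95% interval 0.24 to 0.81, adjusted p = 0.0517), and without control c it passed (adjusted p = 0.0465). The limma log2 fold change was 0.24 (adjusted p = 0.0890) with TPM as deposited. BBC3 (PUMA, ENSG00000105327), a BH3-only member that binds all guardians, was low and spread widely, at 4.74, 4.11 and 5.29 TPM in HA-TAZ and 3.20, 4.83 and 5.54 TPM in the controls. The groups overlapped, and the limma log2 fold change of 0.31 had a 95% interval of -0.25 to 0.87 (adjusted p = 0.396). A difference of the size seen for MCL1 lies inside that interval.

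BAX (ENSG00000087088), the effector that moves from the cytosol to mitochondria, passed the test narrowly. Its level was 39.98, 39.7 and 38.4 TPM in HA-TAZ and 38.3, 38.9 and 37.8 TPM in the controls, and the deposited values overlapped. Rescaled means were 43.5 ± 2.56 and 34.4 ± 2.31 (SD, n = 3 each), with a limma log2 fold change of 0.33 (SE 0.07, adjusted p = 0.0497). With TPM as deposited the log2 fold change was 0.04 (adjusted p = 0.594), and with a pseudocount of 0.1 the adjusted p was 0.0511. Leaving out any 1 of the 6 libraries took the call away, with limma adjusted p from 0.0764 to 0.143. The log2 fold change on the rescaled values ran from 0.27 to 0.38 in these fits. BAK1 (ENSG00000030110), the effector that resides in the outer membrane and is held by MCL1 and BCL-XL, was at 7.19, 8.53 and 8.32 TPM in HA-TAZ and 6.89, 7.29 and 7.59 TPM in the controls, with overlap. Rescaled means were 8.83 ± 0.520 and 6.52 ± 0.752 (SD, n = 3 each). Its limma log2 fold change was 0.39 (95% interval 0.15 to 0.63, adjusted p = 0.0665), which did not pass, and 0.12 (adjusted p = 0.342) with TPM as deposited.

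**Figure D3:**
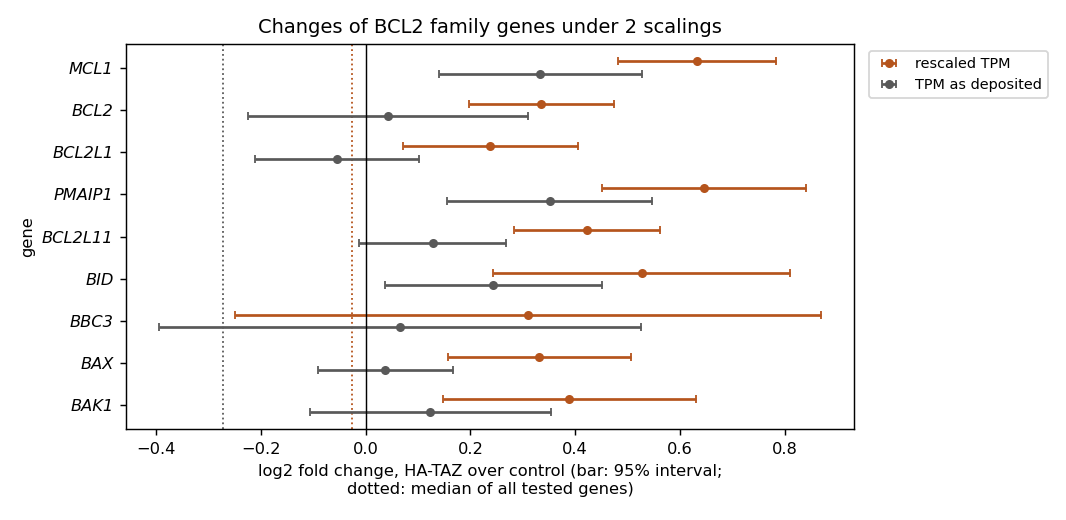
Log2 fold change of HA-TAZ over control with its 95% interval for the 9 tested members, with rescaled TPM and with TPM as deposited, and dotted lines at the medians of all tested genes (-0.03 and -0.27). Each member lay further to the right with rescaling, and BCL2L1 changed sign, from -0.05 to 0.24.

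Summed by role, the guardians came to 168 ± 11.2 TPM in HA-TAZ and 147 ± 9.18 TPM in the controls. The BH3-only members summed to 110.06 ± 5.05 and 93.2 ± 1.92 TPM, and the effectors to 47.4 ± 0.779 and 45.6 ± 0.523 TPM (SD, n = 3 each). The ratio of BH3-only members to guardians was 0.656 ± 0.018 in HA-TAZ and 0.635 ± 0.053 in the controls. That of effectors to guardians was 0.283 ± 0.014 and 0.310 ± 0.020, and the groups overlapped for both ratios.

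MCL1 is spliced into a long form that keeps cells alive and a short form that has been described as promoting death. The short transcript lacks the middle exon, and its protein lacks the membrane anchor. The junctions that tell them apart are shown, with 24 bases of each exon and the downstream exon in capitals. MCL1-202 has 3 exons and 350 codons, and MCL1-201 has 2 exons and 271 codons.
MCL1-202, exon 1 to exon 2: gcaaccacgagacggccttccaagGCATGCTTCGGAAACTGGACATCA
MCL1-202, exon 2 to exon 3: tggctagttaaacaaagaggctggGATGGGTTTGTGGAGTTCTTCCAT
MCL1-201, exon 1 to exon 2: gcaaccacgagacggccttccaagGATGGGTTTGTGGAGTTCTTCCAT
MCL1-202, the long form, was at 70.7, 75.3 and 69.3 TPM in HA-TAZ and 55.9, 55.6 and 53.15 TPM in the controls. MCL1-201, the short form, was at 9.17, 5.73 and 6.86 TPM in HA-TAZ and 4.32, 4.35 and 4.74 TPM in the controls. Both were higher in every HA-TAZ library. On the rescaled values limma called MCL1-202 (adjusted p = 0.0289) and did not call MCL1-201 (adjusted p = 0.0969). The share of all transcripts that were higher without overlap was not computed. The third transcript, MCL1-203, has no annotated coding sequence, with levels of 23.8, 27.3 and 18.2 TPM against 24.6, 22.9 and 16.9 TPM, with overlap. MCL1-202 held 70.4 ± 2.72% of the gene's TPM in HA-TAZ and 68.02 ± 2.68% in the controls (SD, n = 3 each, exact two-sided permutation p = 0.4). MCL1-201 held 7.13 ± 1.78% and 5.56 ± 0.676% (exact permutation p = 0.2). The shares of both forms overlapped between the groups. The smallest p that 3 against 3 libraries allow is 0.1, so this test could establish neither a shift nor its absence.

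At the level of transcripts, 40 of the 72 passed the filter, and limma called 2 higher and 0 lower, against 0.432% of 57448 transcripts called higher. At an unadjusted p under 0.05 there were 16 higher and 1 lower, against 13.1% and 11.1% of all transcripts. They were MCL1-202 (log2 fold change 0.68, SE 0.07, adjusted p = 0.0289) and BCL2L11-206, the longest BIM form with 198 codons (0.54, SE 0.07, adjusted p = 0.0460). Without any 1 of the 6 libraries, and with TPM as deposited, limma called 0 member transcripts. The authors' deposited table gives a q-value for 59 of the 72. Of these, 12 were below a q of 0.05, all with a positive effect. Among the 109487 transcripts with statistics there, 4.08% had a q below 0.05 and a positive effect. The share with a negative effect was not computed. The authors' test and limma were run on the same libraries, so one is no independent support for the other.

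The 12 transcripts came from 7 members, and their effects are natural logs of HA-TAZ over control in the authors' deposited table. MCL1-202 had an effect of 0.496 (SE 0.0438, q = 2.10e-26) and MCL1-201 one of 0.687 (SE 0.179, q = 0.00493) there. In the authors' deposited table, the 54-codon NOXA transcript PMAIP1-202 had an effect of 0.487 (SE 0.0670, q = 1.70e-10), and PMAIP1-203, a transcript with a retained intron, one of 0.431 (q = 0.00860). BCL2L11-206 had an effect of 0.422 (SE 0.0535, q = 1.97e-12) and the 112-codon BCL2L11-202 one of 0.586 (q = 0.0475) in the authors' deposited table. The authors' deposited table further lists 3 BCL2 transcripts, BCL2-202 at 0.268 (q = 1.25e-05) and BCL2-201 at 0.237 (q = 0.0290), which share a coding length of 239 codons, and BCL2-203 of 205 codons at 0.557 (q = 0.00622). BAK1-202 was at 0.529 (q = 4.06e-05), BID-205 at 0.362 (q = 0.00114) and BAX-201 at 0.306 (q = 0.00114) in the authors' deposited table. No transcript of BCL2L1, BBC3 or BCL2A1 was among the 12.

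**Figure D4:**
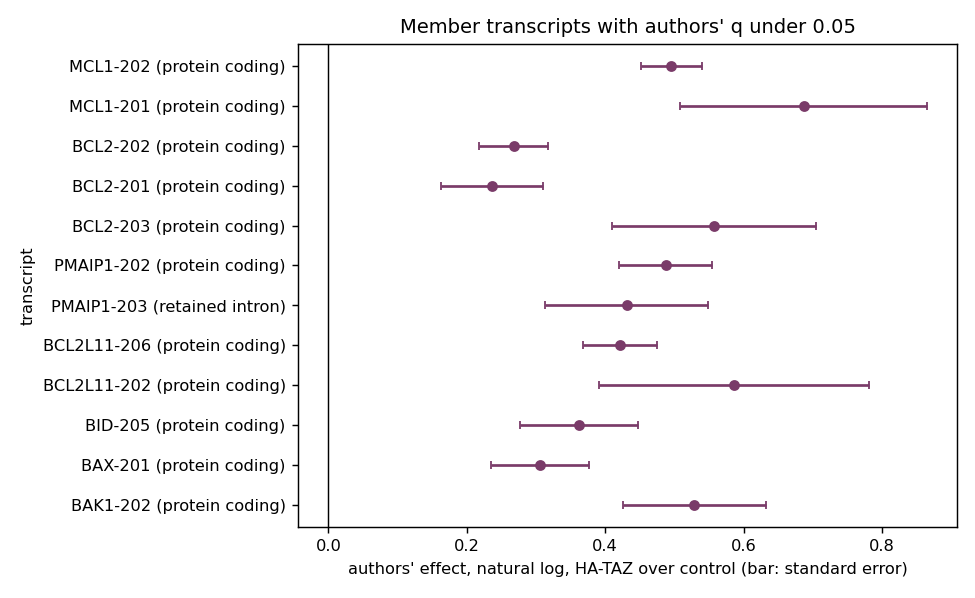
Effect (natural log, HA-TAZ over control) with its standard error for the 12 member transcripts that the authors' deposited table gives with q below 0.05. All 12 lay above 0, from 0.237 for BCL2-201 to 0.687 for MCL1-201.

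The share of a gene's TPM held by its main transcript was higher in HA-TAZ without overlap for 2 of the 10 members, BAK1 and BCL2L11, and lower for 0. Among all tested genes with more than 1 transcript it was higher without overlap in 16.5% and lower in 8.49%, so the members' count was near the background. BAK1-202, which encodes the 211-codon BAK1, was at 5.45, 6.05 and 6.12 TPM in HA-TAZ and 4.71, 4.04 and 4.28 TPM in the controls. BAK1-203, of 153 codons, was at 1.36, 2.11 and 1.77 TPM against 1.83, 2.92 and 2.59 TPM. The share of BAK1-202 was 73.4 ± 2.37% in HA-TAZ and 60.01 ± 7.18% in the controls (SD, n = 3 each), without overlap. The share of BCL2L11-206 was 38.5 ± 1.40% against 34.8 ± 1.504% (SD, n = 3 each), also without overlap. For both, the exact two-sided permutation p was 0.1, the smallest that 3 against 3 libraries allow, and 0.5 after Benjamini-Hochberg adjustment over the main transcripts of the 10 members. The main transcripts of the other 8 members overlapped in share. BCL2L1-203 held 30.7 ± 4.70% of BCL2L1 in HA-TAZ and 33.9 ± 10.5% in the controls, BBC3-203 held 44.9 ± 3.72% and 46.1 ± 8.52% of BBC3, and BCL2A1-201 held 88.9 ± 19.2% and 47.6 ± 41.7% of BCL2A1 (SD, n = 3 each). For BAX it was BAX-201, of 218 codons, with 51.5 ± 1.65% of the gene's TPM in HA-TAZ and 48.7 ± 1.61% in the controls. The 192-codon BAX-202, which encodes the common BAX alpha protein, was at 12.1, 9.48 and 9.69 TPM in HA-TAZ and 7.49, 12.1 and 8.75 TPM in the controls, with overlap.

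Of 31 other member transcripts with a mean of at least 1 TPM, 1 was higher in share without overlap and 4 were lower. Among all such transcripts 8.71% were higher and 15.8% lower, so these counts too were near or below the background. BCL2L11-201, the 138-codon BIM form known as BIM-L, was at 2.40, 2.40 and 2.32 TPM in HA-TAZ and 0.574, 1.66 and 0.9997 TPM in the controls. Its share was 5.61 ± 0.201% and 2.80 ± 1.45% (SD, n = 3 each). BCL2L11-207 held 1.22 ± 1.27% in HA-TAZ and 7.06 ± 1.42% in the controls (SD, n = 3 each), at 0.464, 1.12 and 0 TPM in HA-TAZ and 3.08, 2.07 and 3.04 TPM in the controls. It rests on 12.7 estimated counts in the authors' deposited table, whose q-value for it is 0.309. BCL2L11-204, a target of nonsense-mediated decay, held 11.4 ± 0.798% against 14.9 ± 1.13%. BCL2L1-202, the 170-codon form known as BCL-XS, which opposes BCL-XL, was at 1.84, 1.92 and 1.82 TPM in HA-TAZ and 3.13, 2.65 and 1.96 TPM in the controls, a share of 5.67 ± 0.111% against 7.56 ± 1.67% (SD, n = 3 each). The other lower share was that of BAK1-203. Over all 41 shares the smallest exact permutation p was 0.1, and 0.547 after Benjamini-Hochberg adjustment.

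RefSeq promoters (GRCh38.p14, 250 bases before to 50 after the start) were at hand for 9 of the 10 members, all but MCL1, with 14 windows in all since BCL2L1 and BID have several, and were searched for 4 motifs on both strands. The TEAD motif GGAATG, of the factors through which TAZ reaches DNA, was in 14.0% of 35116 promoters and among the members in that of BBC3. The STAT motif TTCNNNGAA was in 7.66% of promoters and among the members in that of BCL2A1. The E-box CACGTG, bound by MYC and related factors, was in 7.26% of promoters and among the members in 4 of the 14 windows, those of BAX and BBC3 and 2 overlapping windows of BID that hold the same E-box, and the NF-kB consensus was in 5.91% and in no member promoter. The promoters of BCL2, BCL2L1, BAK1, BCL2L11 and PMAIP1 held none of the 4 motifs in this window. The promoter of BAX is shown because it held more E-boxes, 4, than any other member promoter, and they are in capitals.
BAX promoter, chr19:48954625-48954924, plus strand: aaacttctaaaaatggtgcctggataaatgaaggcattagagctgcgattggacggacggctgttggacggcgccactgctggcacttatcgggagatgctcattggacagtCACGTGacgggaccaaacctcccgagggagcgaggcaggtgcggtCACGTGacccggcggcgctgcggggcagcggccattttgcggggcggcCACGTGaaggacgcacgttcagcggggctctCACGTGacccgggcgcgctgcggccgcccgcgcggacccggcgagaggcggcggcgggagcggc

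Other genes of the pathway are given as 3 lists. Of 14 further BCL2 family genes, 11 were tested, and limma called 1 higher and 0 lower, against 4.67% and 2.63% of all genes. Of protein-coding genes 7.5% were called higher. In this list 4 were higher and 1 lower at an unadjusted p under 0.05, against the 16.6% and 14.1% of all genes. The median log2 fold change was 0.11 (-0.16 with TPM as deposited). The called gene was BNIP3, a mitophagy receptor, at 32.9, 38.4 and 32.7 TPM in HA-TAZ and 36.5, 34.9 and 32.3 TPM in the controls, with overlap, and with 38.1 ± 1.48 rescaled TPM in HA-TAZ and 30.9 ± 0.961 in the controls (SD, n = 3 each; limma log2 fold change 0.29, adjusted p = 0.0347). BCL2L10, BOK and BCL2L15 were below the filter. HRK, a BH3-only gene, was at 2.27, 2.82 and 1.83 TPM in HA-TAZ and 6.05, 4.01 and 4.21 TPM in the controls, lower without overlap, but its log2 fold change of -0.56 did not pass (limma adjusted p = 0.0694). How many of all genes were lower without overlap was not computed. HRK was named after its values had been seen. So was BMF, another BH3-only gene, which was at 38.7, 38.7 and 37.9 TPM against 47.2, 46.2 and 46.9 TPM, and at a log2 fold change of 0.02 after rescaling (limma adjusted p = 0.886).

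All 15 genes of the apoptosome and outer membrane list were tested, and the median log2 fold change was 0.18 (-0.09 with TPM as deposited). At an unadjusted limma p under 0.05 there were 7 higher and 1 lower, against the same 16.6% and 14.1% of all genes. In either direction, 4193 of the 11666 protein-coding genes tested were under that limit, against 6959 of all 22651 genes. After adjustment limma called 3 higher and 0 lower, against the same 4.67% and 2.63% of all genes and 7.5% of protein-coding genes called higher. The called genes were BAG3, a co-chaperone (log2 fold change 0.42, limma adjusted p = 0.0357), VDAC2, the outer membrane channel that binds BAK1 (0.33, limma adjusted p = 0.0374), and CYCS, cytochrome c (0.28, limma adjusted p = 0.0423). With TPM as deposited the groups overlapped for VDAC2 and CYCS. Of 17 upstream regulators, all but TP73 were tested, HUWE1 under 2 identifiers, with a median of 0.04 (-0.24 with TPM as deposited). Here limma called 2 higher and 0 lower, against the same 4.67% and 2.63% of all genes and 7.5% of protein-coding genes called higher. At an unadjusted p under 0.05 there were 6 higher and 1 lower, against the same 16.6% and 14.1%. STAT3, a transcription factor known to act on MCL1, was at 34.2, 34.1 and 33.0 TPM in HA-TAZ and 28.3, 26.5 and 27.2 TPM in the controls, without overlap (log2 fold change 0.59, SE 0.06, limma adjusted p = 0.0122). REL, a subunit of NF-kB, was at 4.76, 5.37 and 4.54 TPM against 4.34, 3.71 and 3.85 TPM (log2 fold change 0.49, SE 0.08, limma adjusted p = 0.0307). MYC, named after its values had been seen, was at 292, 305 and 287 TPM in HA-TAZ and 328, 319 and 312 TPM in the controls. These deposited values were lower in every HA-TAZ library, on a scale where the median log2 fold change of all genes was -0.27. After rescaling the log2 fold change of MYC was 0.18 (limma adjusted p = 0.0859). Of these 3 lists, 6 genes were called in all, and leaving out any 1 of the 6 libraries left between 0 and 2.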

How the data were processed

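The authors deposited TPM per transcript and a sleuth table with p-values, q-values, natural log effects and natural log means of estimated counts. Per the file headers, its standard errors (a score without a fixed range) belong to these effects. The submitters' processing notes name kallisto 0.46.0, sleuth 0.30.0 and the build GRCh37, with no roles. TPM carries no read depth. The authors' means imply 52795484 estimated counts in a typical library, and depth per library is unknown. All 6 value columns were used.

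TPM was summed per gene identifier and divided by median-of-ratios factors of 0.866 to 1.21. Genes or transcripts with a mean of at least 1 TPM over the 6 libraries were tested on log2(value + 1) with limma 3.58.1 (R 4.3.3), with an intensity trend and all libraries in 1 fit, which was tested on simulated data. Benjamini-Hochberg adjustment ran over all 22651 genes or 57448 transcripts, with a threshold of 0.05. Shares of a gene's TPM were compared by an exact two-sided permutation test. Transcript names, types, codon counts and sequences came from GENCODE release 29, which is on another build, so genes are given without coordinates. Several transcripts named here had another version in the authors' deposited table and were matched by stable identifier. Among them were BCL2L11-201, BCL2L11-202, BCL2L11-206, BCL2L1-202, BAK1-203 and BCL2-203, so their codon counts and form names are those of GENCODE release 29. All members were named. From the 3 pathway lists every called gene was named, and of the transcripts those called or with a q-value under 0.05 and each member's main one. Members and lists were chosen with earlier results of these data known. Other pseudocounts, filters, scalings and left-out libraries were tried. The name scr is in no label, so the numbers of these columns were not tied to single wild type samples and libraries were not paired.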

Additional observations from a re-analysis of the deposited data

How the results depend on the processing

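The 5 member genes called by limma became 3 without a filter on level, 3 without the intensity trend, 2 with TPM as deposited, 4 with a pseudocount of 0.1, 6 at a mean of at least 5 TPM, 7 among protein-coding genes with their own factors, and 0 to 4 when 1 library was left out. Of all genes, 1652 were called, against 691 without a filter, 758 without the trend and 3329 with TPM as deposited. There were 1615 with a pseudocount of 0.1, and 2240 of the smaller set of genes with a mean of at least 5 TPM. There were 2746 among protein-coding genes with their own factors, and 118 to 470 with 1 library left out. The 6 called genes of the other lists became 2 without a filter, 2 without the trend, 12 among protein-coding genes, and 0 to 2 with 1 library left out. The 2 called member transcripts became 1 with a pseudocount of 0.1, 0 without a filter, 0 with TPM as deposited, 0 without the trend, 6 at a mean of at least 5 TPM, and 0 to 0 with 1 library left out. The counts of all transcripts called under these settings are not given here. The log2 fold change of BCL2L1 turned to -0.054 with TPM as deposited. With 1 library left out, the differences in main transcript share, in percentage points, ran from -1.02 to 1.20 for BCL2, from -6.41 to 2.82 for BCL2L1, from -6.10 to 1.55 for BBC3, from -0.38 to 2.43 for PMAIP1 and from -3.99 to 0.41 for BID. Fits with 1 library left out keep 3 against 2 libraries and pool their spread. The causes of these changes were not tested. Of the 12 member transcripts with the authors' q-value under 0.05, 10 were under 0.01. No paired analysis was possible because the name scr is in no label, and the numbers 1 to 3 after it cannot be tied to the numbers in the wild type titles.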
